A study of Homo sapiens with 9 samples.

Results

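DUSP1, DUSP4, DUSP19, SPRY2, EPHA2 and IER3 are described here as output and feedback genes around the ERK pathway, in HEK293 cells labelled as overexpressing the zinc-sensing receptor GPR39. They were chosen by the gene symbol that the array platform's annotation gives each probe set. The 6 genes hold 16 of the 53617 probe sets, against 14884 genes named in the table, and all 16 passed the filter on dim signal. DUSP1, DUSP4, DUSP19, SPRY2 and EPHA2 have 1 probe set each, and IER3 has 11.

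HEK293 is a human embryonic kidney cell line, and RNA was read on 9 single-colour Affymetrix arrays, 3 per group. The agonist group is labelled as overexpressing GPR39 and treated with 1 uM TC-G-1008, a synthetic GPR39 agonist. The GPR39 group is labelled as overexpressing GPR39 and treated with 0.03 mg/mL cumate, the inducer of a bacterial repressor-based expression switch. The mock group is labelled as naïve or mock control cells without cumate. All groups were kept in DMEM with fetal bovine serum. The labels give no exposure time. They leave unsaid if cumate was present with the agonist, and if the cells are a clone or a pool. In the GPR39 group against mock, the receptor, cumate and any other difference between these cells and the mock cells cannot be told apart. The same holds in the agonist group against mock, where the agonist is added and cumate is uncertain. In the agonist group against the GPR39 group, the agonist and a possible lack of cumate cannot be told apart. The labels call the replicates biological without saying what was separate, such as cultures or treatments, and p-values rest on the spread between these replicates.

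ERK is the last kinase of the RAS, RAF and MEK relay, which carries growth factor and G protein-coupled receptor signals to the nucleus. Active ERK switches on immediate-early genes within minutes to hours, and some of these genes encode its own brakes. MAP kinase phosphatases of the DUSP family remove phosphate from threonine and tyrosine in the activation loop of ERK, JNK or p38, and Sprouty proteins restrain signalling between receptor tyrosine kinases and RAS. The transcript of such a gene is therefore commonly read as an output of the pathway. The arrays measured transcripts, not ERK phosphorylation, and in bulk RNA fewer expressing cells and less RNA per cell cannot be told apart.

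The 6 genes lie on different chromosomes. DUSP1 lies on chromosome 5 (172768096 to 172771195, GRCh38.p14), DUSP19 on chromosome 2 (183078747 to 183100008) and SPRY2 on chromosome 13 (80335976 to 80341126). EPHA2 lies on chromosome 1 (16124337 to 16156069), IER3 on chromosome 6 (30743199 to 30744547) within the major histocompatibility region. RefSeq promoters of that build, each 300 bases long with 250 bases before the start site, were matched for 4 of the 6 genes. They are shown because DUSP1, SPRY2 and EPHA2 rose in agonist against GPR39 cells and DUSP19 fell. No promoter was matched for IER3, which also rose there at its brightest probe set, or for DUSP4, which was not called there. Capitals mark TGACGTCA, the full cyclic AMP response element, its core TGACG on either strand, and TATAAA. Of the 3 SPRY2 promoters in the table, the most upstream is shown.
DUSP1, chr5:172771146-172771445, minus strand: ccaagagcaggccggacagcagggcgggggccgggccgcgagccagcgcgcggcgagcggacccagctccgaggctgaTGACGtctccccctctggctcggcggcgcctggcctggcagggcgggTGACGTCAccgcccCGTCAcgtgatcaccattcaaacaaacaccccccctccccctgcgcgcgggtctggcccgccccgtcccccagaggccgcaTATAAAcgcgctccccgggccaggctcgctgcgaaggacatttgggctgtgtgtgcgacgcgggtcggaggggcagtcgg
SPRY2, chr13:80341077-80341376, minus strand: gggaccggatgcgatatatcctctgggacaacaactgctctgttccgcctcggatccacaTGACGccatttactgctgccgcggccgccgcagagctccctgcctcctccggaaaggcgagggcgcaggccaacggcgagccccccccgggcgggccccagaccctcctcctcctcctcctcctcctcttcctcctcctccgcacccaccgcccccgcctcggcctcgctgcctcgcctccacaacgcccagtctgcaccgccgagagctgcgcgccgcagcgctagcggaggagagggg
EPHA2, chr1:16156020-16156319, minus strand: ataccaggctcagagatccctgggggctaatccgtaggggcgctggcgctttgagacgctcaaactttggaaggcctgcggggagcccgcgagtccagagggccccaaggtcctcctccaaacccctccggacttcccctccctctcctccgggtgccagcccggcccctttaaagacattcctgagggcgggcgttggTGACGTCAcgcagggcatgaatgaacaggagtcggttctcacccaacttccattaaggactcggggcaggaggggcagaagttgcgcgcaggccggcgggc
DUSP19, chr2:183078497-183078796, plus strand: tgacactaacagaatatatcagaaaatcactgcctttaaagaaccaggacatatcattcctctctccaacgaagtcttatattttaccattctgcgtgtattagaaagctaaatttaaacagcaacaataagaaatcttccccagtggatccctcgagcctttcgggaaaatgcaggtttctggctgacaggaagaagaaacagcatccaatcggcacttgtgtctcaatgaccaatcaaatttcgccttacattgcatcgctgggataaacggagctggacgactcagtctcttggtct

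TGACGTCA starts 125 bases before the start site of DUSP1 and 51 bases before that of EPHA2, and 1.85% of the 35116 promoters of that length in the table hold it on either strand. The core TGACG, which every TGACGTCA contains on both strands, is held by 24.6% of all promoters. It was also found in the SPRY2 promoter shown, 190 bases before the start site. The SPRY2 promoters not shown lack it, and their GC content is 63.0% and 44.7%. Further TGACG matches in the DUSP1 promoter lie 172 and 111 bases before its start, and TATAAA, held by 11.5% of promoters, lies 30 bases before it. The DUSP19 promoter shown holds neither, has a GC content of 42.0% against 73.3% in DUSP1, and also lacks GGGCGG, which 45.0% of promoters hold. The AP-1 motif TGANTCA, the ETS motif CCGGAAG, the CArG box bound by SRF and the NF-kB site were searched on both strands and matched in none of these 4 promoters. They are held by 7.71%, 10.3%, 1.29% and 5.91% of all promoters. A match here describes letters only, not binding.

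Array medians lay between 3.13 and 3.22 on the log2 scale. Across all probe sets mock replicate 1 had a mean correlation of 0.988 with GPR39 arrays and of 0.985 with its own group, and each call of the 6 genes below was the same without it. GPR39 itself, read by 1 probe set, lay at 2.58 ± 0.11 in agonist, 2.58 ± 0.04 in GPR39 and 2.47 ± 0.07 in mock arrays (SD, n = 3). All 9 values lie at or below the 40th percentile of their array, so the label of overexpression was not seen at this probe set. The position of its probes was not used here. Of 9 genes listed as typical of HEK293 cells, 6 have a named probe set. All 6 lay above the 40th percentile on every array. Their mean was 6.852 to 6.966 in agonist, 6.948 to 7.003 in GPR39 and 7.146 to 7.317 in mock arrays. The agonist and GPR39 ranges overlap, and both lie below mock. IRS4 lay at 9.69, 9.52 and 10.54 in the agonist, GPR39 and mock groups, and VIM at 6.94, 7.11 and 7.40. PAX2 and KRT8 also had their highest group mean in mock. KRT18 went the other way, at 8.11, 8.08 and 7.81, and LIN28B lay at 8.58, 8.99 and 8.88. The fibroblast markers DCN and LUM were below the 40th percentile on every array. However, 3 of 4 named leukocyte markers and 2 of 4 named hepatocyte markers also lay above it on every array. Passing this percentile therefore does not set the HEK293 genes apart. The mean level of 4 named leukocyte markers was 4.28 to 4.45 in agonist, 4.13 to 4.33 in GPR39 and 3.78 to 3.90 in mock arrays. It thus moved with the groups, most of all through CD68, at 7.90, 7.56 and 6.66, while CD14 lay at 2.85, 2.77 and 2.76. The mean of 4 hepatocyte markers was 3.22 to 3.34, 3.04 to 3.35 and 3.06 to 3.25 in the same order, and no marker was at 0. Their part in the results was not tested.

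**Figure D1:**
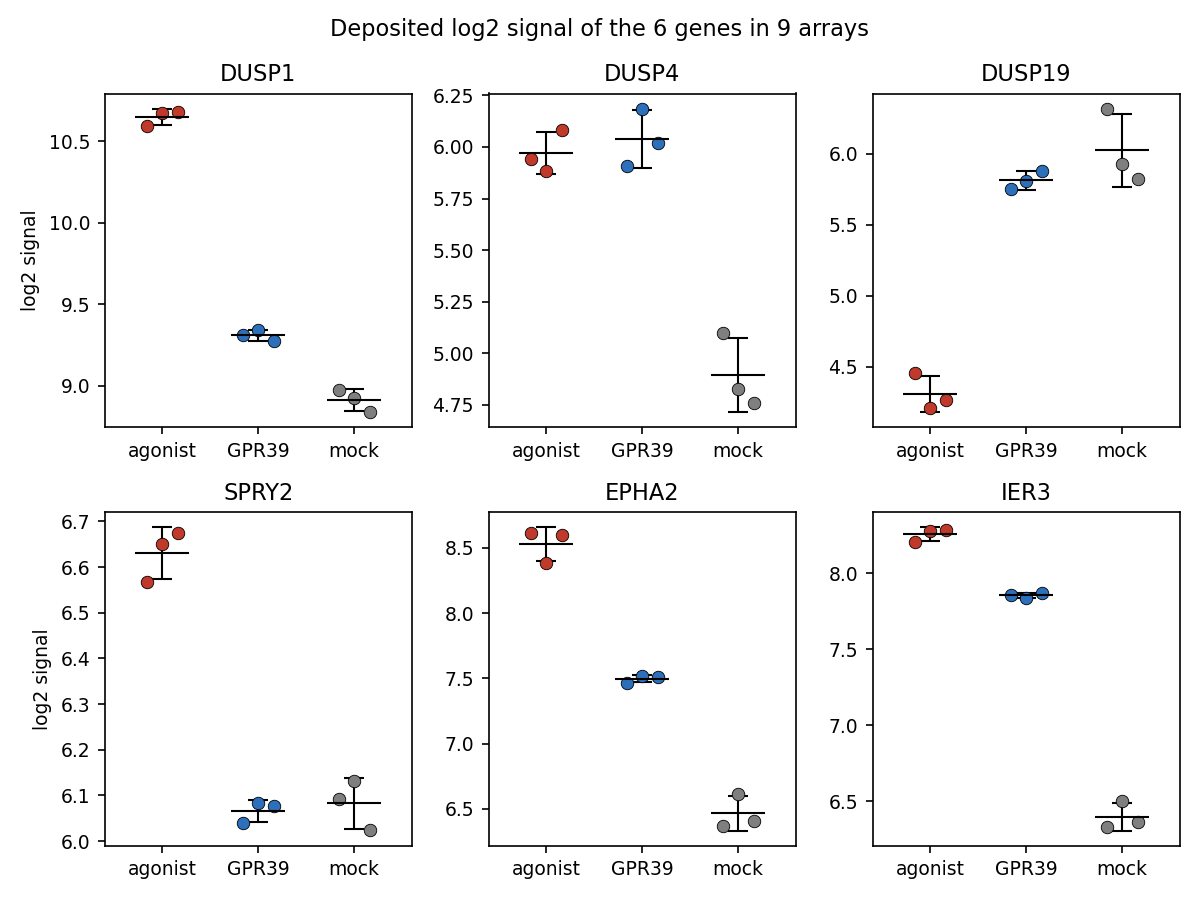
Deposited log2 signal (vertical axes, each with its own range) of the 6 genes in agonist, GPR39 and mock arrays. Points are arrays, wide bars the group means and whiskers 1 SD over 3 arrays. DUSP1, EPHA2 and IER3 form 3 separate levels, DUSP4 is low in mock alone, SPRY2 is high in agonist alone and DUSP19 is low in agonist alone.

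DUSP1, also called MKP-1, acts on p38, JNK and ERK and is itself an immediate-early gene. It read 10.59, 10.68 and 10.68 in agonist arrays, 9.31, 9.34 and 9.28 in GPR39 arrays and 8.98, 8.92 and 8.84 in mock arrays. The 3 groups do not overlap, and the wider gap lies between agonist and GPR39 arrays. Separation of 2 groups was common over all probe sets, so it does not by itself set a gene apart. Of 33376 tested, 3818 lay wholly higher and 3098 wholly lower in GPR39 than in mock arrays. In agonist against GPR39 arrays 4499 lay wholly higher and 5491 wholly lower, and in agonist against mock arrays 4939 and 5391. DUSP1 was 2.53-fold higher in agonist than in GPR39 cells (log2 change 1.34 ± 0.07 SE, limma adjusted p = 3.24e-05). In GPR39 against mock cells DUSP1 was 1.32-fold higher (log2 change 0.40 ± 0.07, 95% interval 0.25 to 0.55, limma adjusted p = 0.0330). That call was lost in 12 of 19 alternative settings, with limma adjusted p up to 0.137, including the removal of any array other than mock replicate 1.

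DUSP4, or MKP-2, is a related nuclear phosphatase whose transcript is induced by ERK signalling. Its arrays read 5.94, 5.89 and 6.08 in the agonist group, 5.91, 6.19 and 6.02 in the GPR39 group and 5.10, 4.83 and 4.76 in mock. The agonist and GPR39 arrays overlap, and both lie above all mock arrays. DUSP4 rose 2.21-fold in GPR39 against mock cells (log2 change 1.14 ± 0.11, limma adjusted p = 0.00421). Agonist against GPR39 cells gave -0.07 ± 0.11, with a 95% interval from -0.33 to 0.20 (limma adjusted p = 0.780). Agonist cells stood 1.08 ± 0.11 above mock (limma adjusted p = 0.000722).

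SPRY2, a Sprouty adaptor that restrains receptor signalling towards RAS, showed the opposite arrangement. It read 6.57, 6.65 and 6.68 in agonist arrays, 6.04, 6.08 and 6.08 in GPR39 arrays and 6.09, 6.13 and 6.02 in mock arrays. Every agonist array lies above all others, and GPR39 and mock arrays overlap. SPRY2 rose 1.48-fold in agonist against GPR39 cells (log2 change 0.56 ± 0.06, limma adjusted p = 0.00209). In GPR39 against mock cells the difference was -0.02 ± 0.06, with a 95% interval from -0.16 to 0.13 (limma adjusted p = 0.933).

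EPHA2, a receptor tyrosine kinase for ephrin-A ligands and a known transcriptional target of ERK, stepped up in both comparisons. Its values were 8.61, 8.38 and 8.60 in agonist arrays, 7.47, 7.51 and 7.51 in GPR39 arrays and 6.37, 6.61 and 6.41 in mock arrays. The groups do not overlap and the GPR39 mean lies midway. The log2 change was 1.03 ± 0.09 in agonist against GPR39 cells (limma adjusted p = 0.000716) and also 1.03 ± 0.09 in GPR39 against mock cells (limma adjusted p = 0.00223). Agonist cells carried 4.19-fold more signal than mock cells (log2 change 2.07 ± 0.09, limma adjusted p = 6.63e-06).

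IER3, or IEX-1, is a short-lived stress and growth factor response protein and a substrate of ERK. At its brightest probe set it read 8.20, 8.28 and 8.29 in agonist arrays, 7.86, 7.84 and 7.87 in GPR39 arrays and 6.33, 6.50 and 6.36 in mock arrays. The 3 groups stand apart, and the gap between GPR39 and mock is the wider. IER3 rose 2.75-fold in GPR39 against mock cells (log2 change 1.46 ± 0.07, limma adjusted p = 4.66e-05). A smaller rise of 0.40 ± 0.07 was measured in agonist against GPR39 cells (limma adjusted p = 0.0110).

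The 11 IER3 probe sets hold only 4 distinct sets of values, so they are not separate measurements. The brightest set is shared by 4 probe sets. Another 2 probe sets, each with values of its own, rose by 1.43 ± 0.07 and 1.30 ± 0.06 in GPR39 against mock cells, and by 0.35 ± 0.07 and 0.40 ± 0.06 in agonist against GPR39 cells (limma adjusted p at most 0.0185). The remaining 5 share dimmer values, with group means of 4.97, 4.89 and 4.23 in agonist, GPR39 and mock arrays. They rose by 0.66 ± 0.10 in GPR39 against mock cells (limma adjusted p = 0.0199; lost without mock replicate 2 or any GPR39 array, 0.0613 to 0.0879) and read 0.08 ± 0.10 in agonist against GPR39 cells (limma adjusted p = 0.657). The small agonist step of IER3 was thus called at 6 of its 11 probe sets, which hold 3 of the 4 distinct sets of values. Leaving out GPR39 replicate 1, 2 or 3, or agonist replicate 2 or 3, ended the call in 1 of these 3 sets. Its limma adjusted p was then 0.0515 to 0.0666.

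**Figure D2:**
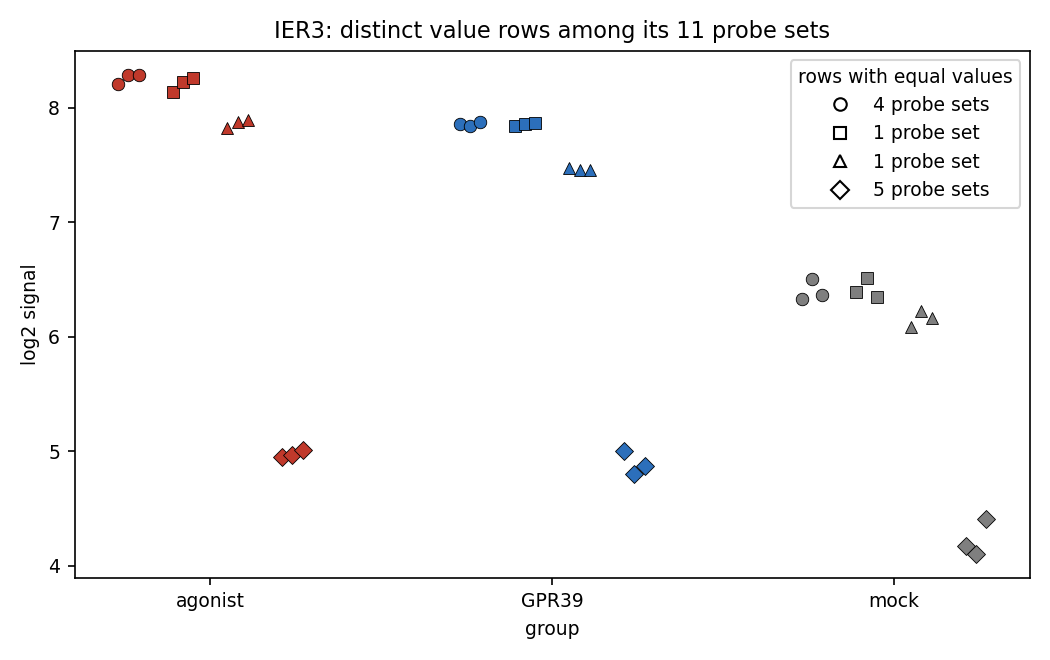
Log2 signal (vertical axis) of the 4 distinct sets of IER3 values in agonist, GPR39 and mock arrays, with 1 point per array and 1 symbol per set, labelled by how many probe sets share it. The 3 brighter sets separate all groups, while the set shared by 5 probe sets overlaps between agonist and GPR39 arrays.

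DUSP19 departed from the rest. It encodes a small atypical phosphatase that lacks the MAP kinase binding domain of DUSP1 and DUSP4 and is known for acting in the JNK branch through the kinase MKK7, so the name of an ERK feedback gene does not describe it. Its arrays read 4.45, 4.21 and 4.27 in the agonist group, 5.75, 5.80 and 5.88 in the GPR39 group and 6.32, 5.93 and 5.82 in mock. Every agonist array lies more than 1 log2 unit below all others, and GPR39 and mock arrays overlap, with mock replicate 1 the highest. DUSP19 fell 2.83-fold in agonist against GPR39 cells (log2 change -1.50 ± 0.13, limma adjusted p = 0.000662), the 14th largest decrease of 33376 probe sets tested. In GPR39 against mock cells it read -0.21 ± 0.13, with a 95% interval from -0.51 to 0.09 (limma adjusted p = 0.503).

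**Figure D3:**
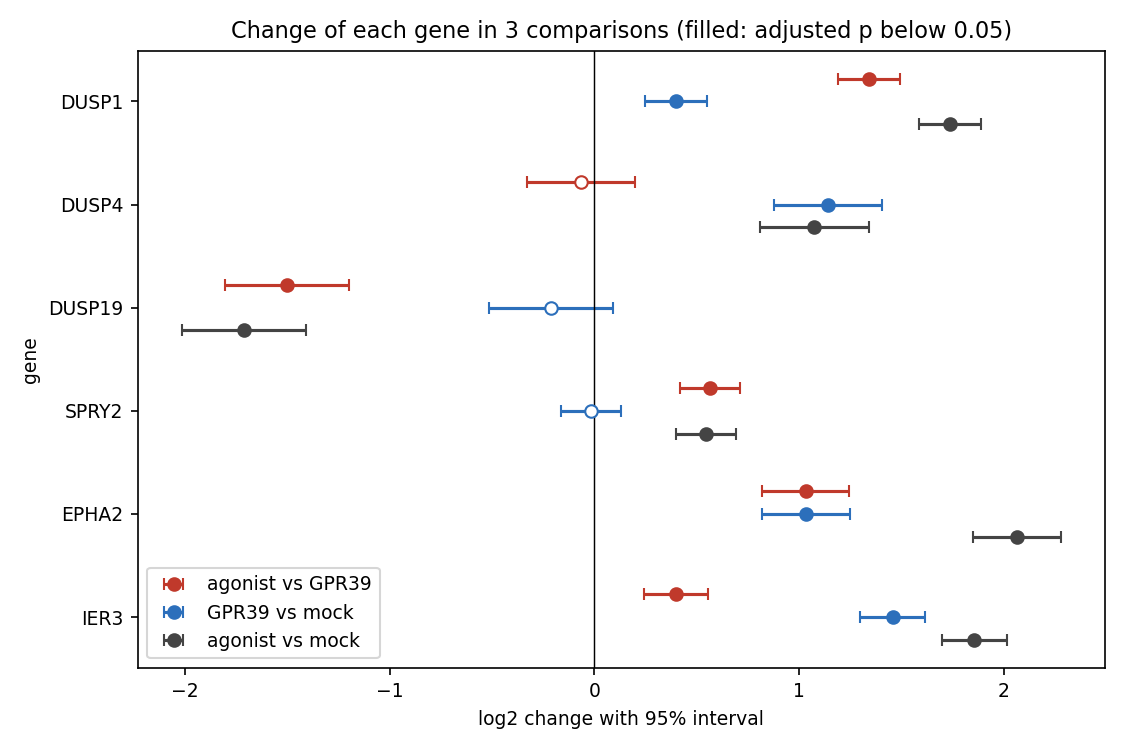
Log2 change (horizontal axis) of each gene in 3 comparisons with its 95% interval from limma. Filled points have an adjusted p below 0.05 and open points do not. Of the 2 steps that make up agonist against mock, GPR39 against mock is the larger for DUSP4 and IER3 and agonist against GPR39 for DUSP1, SPRY2 and DUSP19, while the EPHA2 intervals of both steps coincide.

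Counted together, 4 of the 6 genes rose and none fell in GPR39 against mock cells, where 1.17% of all tested probe sets were called, 0.749% higher and 0.422% lower. DUSP1 is among the 4, so the count is 3 in the settings that end its call. In agonist against GPR39 cells 4 rose and 1 fell, where 9.06% of all probe sets were called, 3.12% higher and 5.95% lower. In agonist against mock cells 5 rose and 1 fell, where 15.0% were called, 6.11% higher and 8.94% lower, with limma adjusted p at most 0.00108. These genes were picked with results of the same arrays in view, so the counts describe them and do not test them. Without mock replicate 1 the GPR39 against mock background became 1324 calls, 419 higher and 905 lower, in place of 391, and the 4 calls of these genes were kept. Centring arrays on their 75th percentile changed the overall split of calls to 310 higher and 105 lower, from 250 and 141 as deposited, in GPR39 against mock. In agonist against mock it gave 2771 higher and 2159 lower, from 2039 and 2983. No call of the 6 genes in these comparisons changed with it.

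Whether a gene's agonist step differed from its GPR39 step was tested as a contrast in the same model, which uses the GPR39 arrays in both steps and called 1.03% of all probe sets. The agonist step minus the GPR39 step was 0.94 ± 0.11 for DUSP1 (limma adjusted p = 0.0133), -1.06 ± 0.12 for IER3 at its brightest probe set (limma adjusted p = 0.00981), -1.21 ± 0.20 for DUSP4 (limma adjusted p = 0.0403) and -1.29 ± 0.23 for DUSP19 (limma adjusted p = 0.0476). The dimmer values shared by 5 IER3 probe sets gave -0.58 ± 0.16 (limma adjusted p = 0.163), not past the threshold. The DUSP4 and DUSP19 differences lost the threshold in 12 and 13 of 18 alternative settings, with limma adjusted p up to 0.161 and 0.185. Those of DUSP1 and IER3 each lost it in 4 of 18, among them the removal of any GPR39 array, with limma adjusted p up to 0.0875 and 0.0707. For SPRY2 it was 0.58 ± 0.11 (limma adjusted p = 0.0615), not past the threshold. For EPHA2 it was -0.0013 ± 0.16, with a 95% interval from -0.37 to 0.37. As fitted to all 9 arrays, DUSP4 and the brightest probe set of IER3 had the larger step between GPR39 and mock. DUSP1 and DUSP19 had it between agonist and GPR39.

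The wider family of MAP kinase phosphatases, 10 genes with DUSP1 and DUSP4 among them, was named and tested in full. In GPR39 against mock cells 2 rose, DUSP1 and DUSP4, and 8 did not pass. The median log2 change was 0.29, or 0.23 without DUSP1 and DUSP4, against 0.01 over all probe sets. In agonist against GPR39 cells 3 rose and 7 did not pass, with a median of 0.09, with or without DUSP1 and DUSP4, against 0.01. Beside DUSP1 these were DUSP5, a nuclear phosphatase selective for ERK, at 0.80 ± 0.16 (limma adjusted p = 0.0188), and DUSP2, an inducible nuclear phosphatase, at 0.74 ± 0.15 (limma adjusted p = 0.0210). DUSP5 read 6.78 ± 0.26 in agonist, 5.99 ± 0.17 in GPR39 and 5.81 ± 0.19 in mock arrays (SD, n = 3), and its dimmer second probe set changed by 0.17 ± 0.14 and was not called. The call of DUSP5 was lost without GPR39 replicate 2 or 3 or agonist replicate 2 or 3 (limma adjusted p 0.0511 to 0.0703), and that of DUSP2 without GPR39 replicate 2 or 3 or agonist replicate 1 or 2 (0.0651 to 0.0792).

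In agonist against mock cells 6.11% of all probe sets were called higher and 8.94% lower. Of these 10 phosphatase genes, 7 rose there and none fell. Outside the 4 named, they were DUSP8, DUSP10 and DUSP7, named after their values were seen, at 0.43 ± 0.08, 0.35 ± 0.06 and 0.25 ± 0.07 (limma adjusted p = 0.00988, 0.00709 and 0.0476). The call of DUSP7 was lost without any 1 of the 9 arrays (limma adjusted p 0.0569 to 0.138). DUSP6, the cytoplasmic phosphatase most specific for ERK and a common readout of the pathway, was also named after its values were seen. It read 5.74 ± 0.0017 in agonist, 5.70 ± 0.06 in GPR39 and 5.75 ± 0.01 in mock arrays (SD, n = 3). Its log2 change was 0.04 ± 0.06 in agonist against GPR39 cells and -0.05 ± 0.06 in GPR39 against mock cells, with 95% intervals from -0.10 to 0.18 and from -0.19 to 0.08.

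DUSP19 belongs to the atypical and other dual-specificity phosphatases, of which 20 of 23 listed genes are named and 19 were tested. In GPR39 against mock cells limma called 0 of them, and 2 had an unadjusted p below 0.05. In agonist against GPR39 cells 1 rose and 4 fell, with a median of -0.11. SSH3, a cofilin phosphatase of the Slingshot family, fell by 0.58 ± 0.08 on the log2 scale (limma adjusted p = 0.00495), and STYX, a catalytically inactive relative, fell by 0.41 ± 0.07 (limma adjusted p = 0.0120). DUSP3, or VHR, changed by -0.46 ± 0.10 (limma adjusted p = 0.0261), and DUSP14, a small phosphatase that also acts on MAP kinases, rose by 0.40 ± 0.08 (limma adjusted p = 0.0220). DUSP3 lost its call without GPR39 replicate 2 or 3 or agonist replicate 2 or 3 (limma adjusted p 0.0707 to 0.0933), and DUSP14 without any GPR39 array or agonist replicate 1 or 3 (0.0517 to 0.0814). Centring on the 75th percentile also ended the call of DUSP3 (limma adjusted p = 0.0524), and fitting only the 2 groups compared that of DUSP14 (limma adjusted p = 0.0525). The change of DUSP19 was the most negative of the 19.

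**Figure D4:**
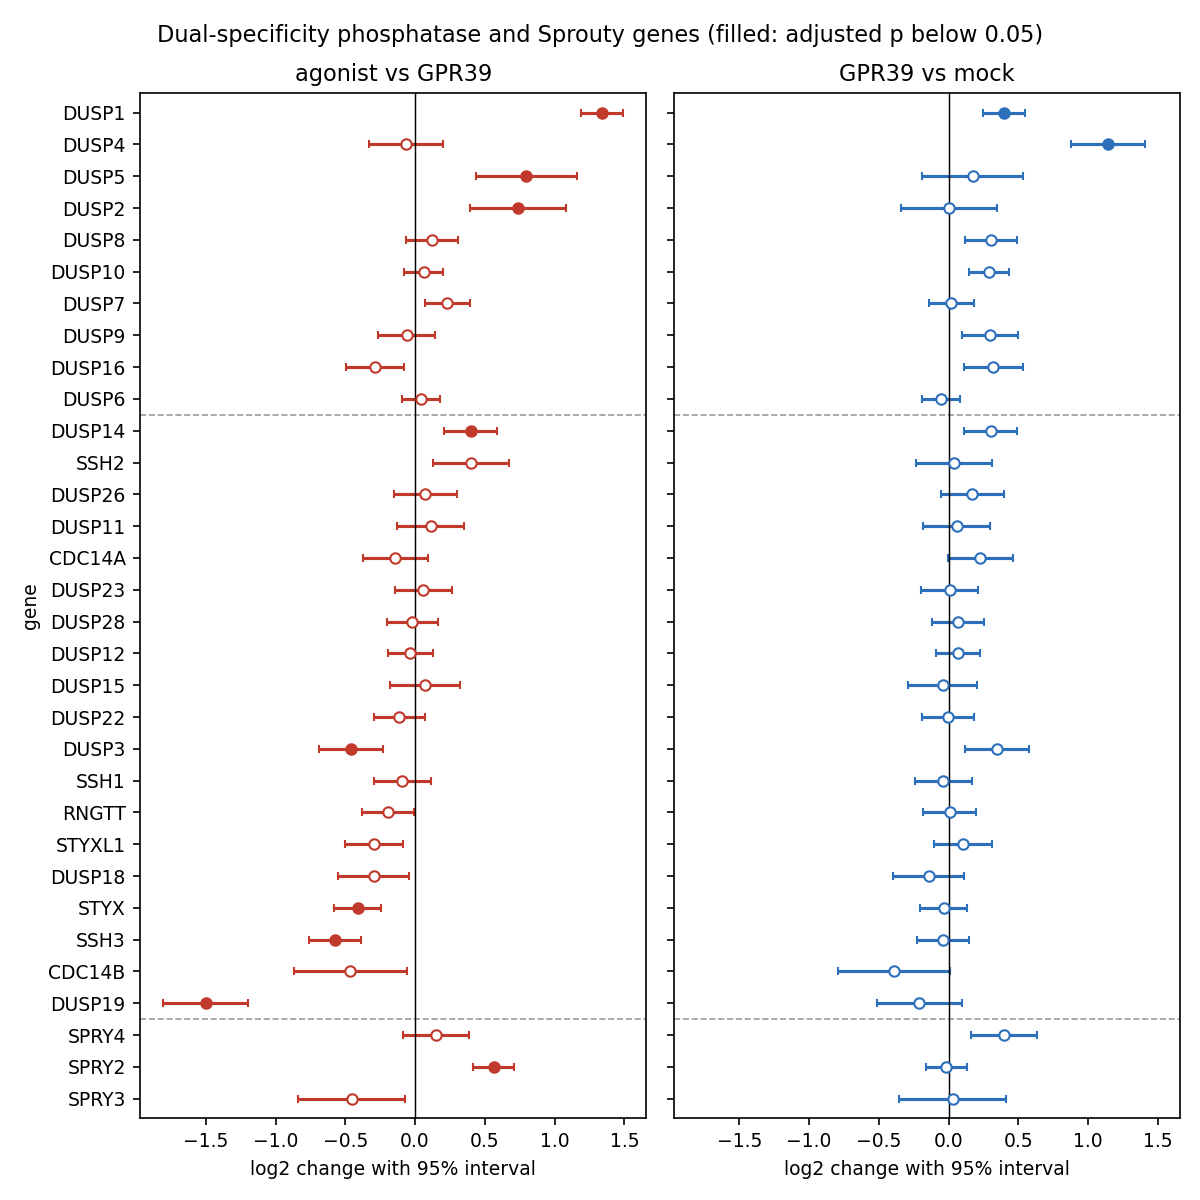
Log2 change with its 95% interval (horizontal axes) of the tested phosphatase and Sprouty genes in agonist against GPR39 cells (left) and GPR39 against mock cells (right). Dashed lines part MAP kinase phosphatases, other dual-specificity phosphatases and Sprouty genes, each sorted by the change in agonist against mock, and filled points have an adjusted p below 0.05. DUSP4 is filled on the right alone, and DUSP19 lies far below the others on the left.

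Of 7 Sprouty and SPRED genes, 3 are named here, SPRY2, SPRY3 and SPRY4. SPRY4, another inducible Sprouty, changed by 0.15 ± 0.10 in agonist against GPR39 cells and by 0.40 ± 0.10 in GPR39 against mock cells (limma adjusted p = 0.434 and 0.134), and stood 0.55 ± 0.10 higher in agonist than in mock cells (limma adjusted p = 0.00955). SPRY3 changed by -0.45 ± 0.17 and 0.03 ± 0.17 in the same steps (limma adjusted p = 0.145 and 0.959), and by -0.42 ± 0.17 in agonist against mock cells (limma adjusted p = 0.135). Its dimmer second probe set was called lower in agonist than in mock cells, at -0.40 ± 0.11 (limma adjusted p = 0.0495). SPRY2 was the 1 gene of the 3 called in agonist against GPR39 cells.

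Among 21 named of 22 listed Eph receptor and ephrin genes, 19 were tested. EPHA2 was the 1 that rose in GPR39 against mock cells, while EPHA7 and EPHA4 fell, with a list median of -0.07. EPHA7, a receptor best known from the developing nervous system, read 7.93 ± 0.10 in agonist, 8.71 ± 0.01 in GPR39 and 9.37 ± 0.10 in mock arrays (SD, n = 3). It fell by 0.77 ± 0.08 in agonist against GPR39 cells and by 0.67 ± 0.08 in GPR39 against mock cells (limma adjusted p = 0.00138 and 0.00890), stepwise like EPHA2 but downward. EPHA4, also counted as an ERK output gene, changed by -0.65 ± 0.11 in GPR39 against mock cells (limma adjusted p = 0.0331) and by 0.12 ± 0.11 in agonist against GPR39 cells. In agonist against GPR39 cells 3 genes rose and 2 fell, with a median of -0.08. The ephrin-B ligand genes EFNB2 and EFNB1 rose by 0.66 ± 0.08 and 0.49 ± 0.08 (limma adjusted p = 0.00288 and 0.00853), and the ephrin-A ligand gene EFNA5 fell by 0.63 ± 0.10 (limma adjusted p = 0.00906). The EPHA7 call against mock was lost without GPR39 replicate 2 or 3 (limma adjusted p 0.0525 and 0.0532). That of EPHA4 was lost without any 1 of 7 arrays, all but mock replicate 1 and agonist replicate 3 (up to 0.128).

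**Figure D5:**
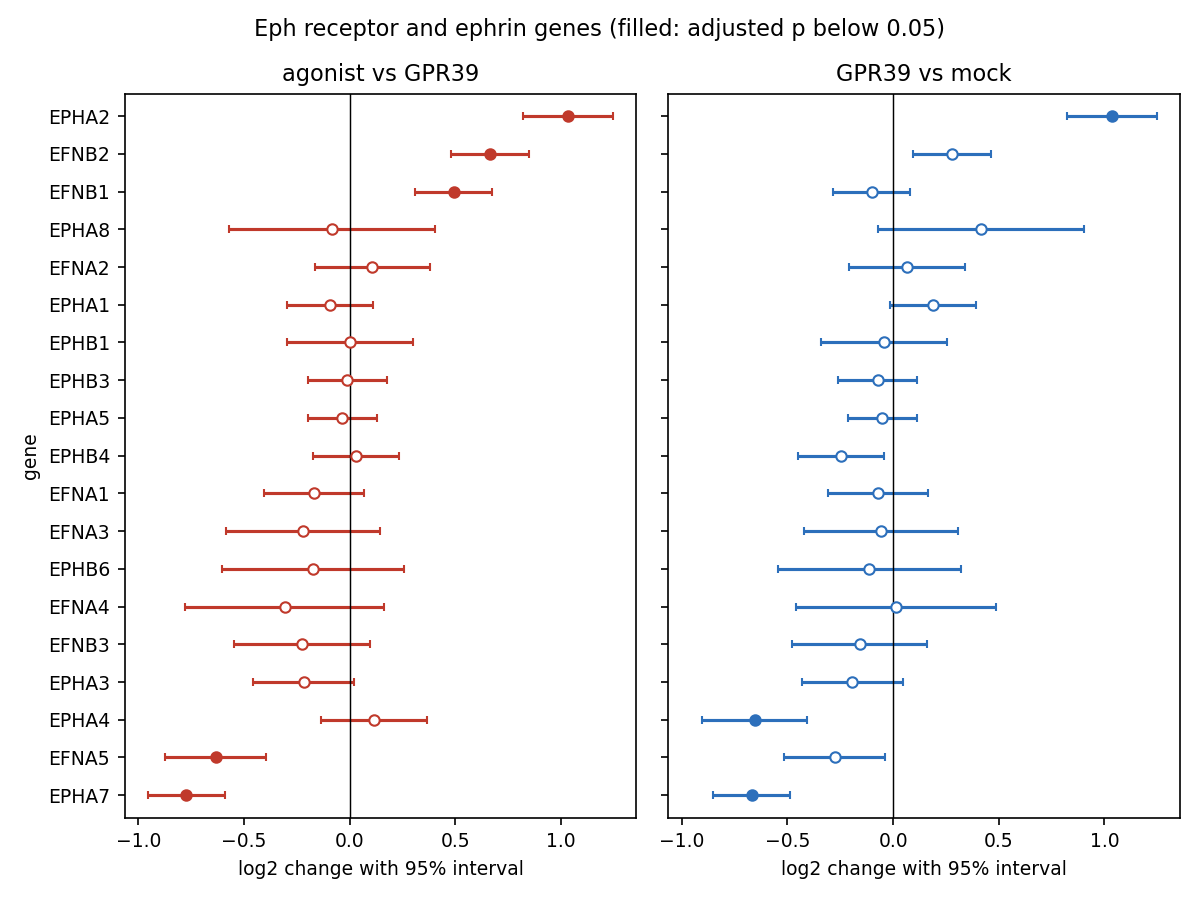
Log2 change with its 95% interval (horizontal axes) of the 19 tested Eph receptor and ephrin genes in agonist against GPR39 cells (left) and GPR39 against mock cells (right), sorted by the change in agonist against mock. Filled points have an adjusted p below 0.05. EPHA2 is filled at the top and EPHA7 at the bottom of both panels.

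The list of 30 ERK output genes, with EPHA2 and IER3 among them, had 26 named and 25 tested genes. In GPR39 against mock cells 9 rose and 2 fell, with a median of 0.40. In agonist against GPR39 cells 14 rose and 1 fell, also with a median of 0.40. Without EPHA2 and IER3 the medians were 0.37 and 0.39, against 0.01 over all probe sets in each step. Of the genes beside the 6, the AP-1 subunit genes FOSL1 and JUNB rose by 1.81 ± 0.14 and 1.19 ± 0.12 in GPR39 against mock cells (limma adjusted p = 0.000926 and 0.00450). ERRFI1, a feedback inhibitor of the EGF receptor, rose by 0.72 ± 0.08 and the cytokine gene LIF by 0.61 ± 0.07 (limma adjusted p = 0.00864 and 0.00955). The 2 that fell were EPHA4 and FOS, the second chosen for this comparison after its values were seen. FOS changed by -0.74 ± 0.11 (limma adjusted p = 0.0204), and its other probe set by -0.06 ± 0.20 (limma adjusted p = 0.916). That FOS call was lost without mock replicate 2 or 3 or GPR39 replicate 3 (0.0787 to 0.0809). In agonist against GPR39 cells the transcription factor genes EGR1, FOS and JUNB rose by 2.19 ± 0.12, 1.75 ± 0.11 and 1.57 ± 0.12, and the pseudokinase gene TRIB1 by 1.12 ± 0.09 (limma adjusted p at most 0.000430). The dimmer FOS probe set gave 0.76 ± 0.20 there (limma adjusted p = 0.0525), and the 1 gene that fell was ETV1, named after its values were seen, at -0.80 ± 0.17 (limma adjusted p = 0.0256). Its call was lost without GPR39 replicate 2 or 3 or agonist replicate 2 or 3 (limma adjusted p 0.0665 to 0.0889). Without GPR39 replicate 3 the call of ERRFI1 was lost (limma adjusted p = 0.0545), and without any 1 GPR39 array that of LIF (0.0512 to 0.0568). The 11 calls in GPR39 against mock cells became as few as 4 when 1 array was left out.

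A list of genes whose symbols begin with IER had 4 of 5 genes named and tested. IER3 has its name from induction and not from sequence. IER5 rose by 0.50 ± 0.08 in GPR39 against mock cells (limma adjusted p = 0.0298), a call lost without mock replicate 2 or 3, any GPR39 array or agonist replicate 1 (up to 0.125), and IER2 by 1.03 ± 0.16 in agonist against GPR39 cells (limma adjusted p = 0.00855). IER2 read 7.86 ± 0.26 in agonist, 6.83 ± 0.11 in GPR39 and 6.56 ± 0.26 in mock arrays (SD, n = 3), so it too stood highest in agonist cells.

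The cascades on which these proteins act were listed as well. Of 15 tested genes of the RAS, RAF, MEK and ERK relay, 1 rose in GPR39 against mock cells, and 2 rose and 1 fell in agonist against GPR39 cells, with medians of -0.02 and -0.07. PEA15, which holds ERK in the cytoplasm, rose by 0.55 ± 0.10 in agonist against GPR39 cells and by 0.58 ± 0.10 in GPR39 against mock cells (limma adjusted p = 0.0120 and 0.0336). MAP2K1, encoding the kinase MEK1, rose by 0.35 ± 0.07 and MAPK3, encoding ERK1, changed by -0.47 ± 0.12 in agonist against GPR39 cells (limma adjusted p = 0.0176 and 0.0460). Of 18 tested JNK and p38 cascade genes, 1 fell in GPR39 against mock cells, and 3 rose and 1 fell in agonist against GPR39 cells. MAP3K5, the stress kinase ASK1, fell by 0.83 ± 0.10, while MAP2K3, an activator of p38, rose by 0.49 ± 0.08, JUN by 0.41 ± 0.08 and MAPKAPK2, a kinase downstream of p38, by 0.35 ± 0.07 (limma adjusted p = 0.00302, 0.00828, 0.0188 and 0.0228). MAP2K6 was lower in GPR39 than in mock cells by at least 0.74 on the log2 scale (measured -0.81 ± 0.14, limma adjusted p = 0.0437), with 2 of 3 GPR39 arrays in the dim range up to the 40th percentile. Single arrays decided many of these calls. That of MAPK3 was lost without any array but agonist replicate 3, that of MAP2K6 without any but agonist replicate 1, and that of PEA15 against mock without any but mock replicate 1 (limma adjusted p up to 0.131, 0.161 and 0.136). The call of MAP2K1 was lost without GPR39 replicate 1 or 2 or agonist replicate 2, that of JUN without any GPR39 array or agonist replicate 1 or 3, and that of MAPKAPK2 without any GPR39 or agonist array (limma adjusted p up to 0.0673, 0.0712 and 0.0834).

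The genes most like each of the 6 were sought by Pearson correlation of log2 signal over the 9 arrays among 11910 other named genes. The arrays fall into 3 groups, so a high value mostly says that a gene's group means have the same order and a similar relative spacing. EPHA2 was most like NFKB1, an NF-kB subunit gene, with r = 0.999, followed by XBP1 and TMED5, both at 0.992. NFKB1 changed by 0.82 in agonist against GPR39 cells and by 0.86 in GPR39 against mock cells, nearly equal steps as in EPHA2. DUSP1 was most like PIM2 (0.998), GAL (0.997) and MMP10 (0.997), and SPRY2 most like RRAD (0.993), SAT1 (0.992) and SYAP1 (0.988).

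IER3 was most like CCN2 (0.995), CD44 (0.994) and GLIPR1 (0.991), genes whose larger step also lay between GPR39 and mock. DUSP19 was most like LZIC (0.996), HDDC2 (0.993) and SMIM8 (0.993), which changed by -0.37, -0.42 and -0.96 in agonist against GPR39 cells. DUSP4 had the fewest close companions. Its nearest were DPY30 (0.976), RND3 (0.975) and MYPN (0.973), and 16 genes reached 0.95, against 202 for DUSP1, 315 for DUSP19, 153 for EPHA2, 79 for SPRY2 and 57 for IER3.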

How the data were processed

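Total RNA of 9 HEK293 samples was biotin-labelled and hybridised to Affymetrix arrays, per the labels. The deposited table holds log2 signals by probe set, a scale read from the values themselves (0.717 to 13.5). MAS5 is the tool named, per the submitters' processing notes. How values were scaled between arrays and put on a log scale is not stated there. The values were used as deposited. Symbols came from the platform annotation (16098 of 53617 probe sets), updated by Entrez identifier through RefSeq (GRCh38.p14). A probe set was tested if at least 3 of 9 arrays exceeded their own 40th percentile, which left 33376. A model over all arrays was fitted with limma 3.58.1 (R 4.3.3, lmFit and eBayes, 6 residual and 2.12 prior degrees of freedom), two-sided, with Benjamini-Hochberg adjustment over all probe sets tested and a threshold of 0.05. Where some arrays of the lower group were dimmer than their 40th percentile, a called change is given as "at least", with that percentile in their place. Errors of log2 changes are standard errors. A gene with several probe sets is given by the brightest.

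The 6 genes and the gene lists were chosen with earlier results of these data known. Named beside them are, per list, up to 4 called genes with the smallest p in each step (of a list with none, the 2 brightest), and the 3 genes most correlated with each. The scripts were tested on simulated data. Arrays have no read depth, and their number limits the precision. Same-numbered replicates did not deviate together (correlations -0.10 to 0.06 over 9 pairs), so no replicate block was used.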

Additional observations from a re-analysis of the deposited data

How the results depend on the processing

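Across 19 alternatives for each log2 change and 18 for each difference between the steps, 402 values of the 6 genes kept their side of the threshold, 45 lost it and 3 gained it. Of the 402, 10 changed sign, all uncalled and near 0: SPRY2 in GPR39 against mock (up to 0.04), DUSP4 in agonist against GPR39 (0.0073) and the EPHA2 step difference (up to 0.07). The DUSP1 change in GPR39 against mock lost it with no filter (0.40), median centring (0.41), the replicate block (0.40), only the 2 groups compared (0.40) and 8 of 9 single arrays left out (0.36 to 0.43 over all 9, kept without mock replicate 1). The step differences lost it for DUSP1 with the replicate block (0.94) and without any GPR39 array (range over arrays left out 0.91 to 0.98), and for IER3 likewise (-1.06, and -1.11 to -1.02). For DUSP4 it was lost with no filter (-1.21), quantile normalization (-1.23), 75th percentile centring (-1.25), the replicate block (-1.21) and 8 of 9 arrays left out (-1.34 to -1.06 over all 9, kept without mock replicate 1). For DUSP19 the same settings gave -1.29, -1.35, -1.33, -1.29 and, over all 9 arrays left out, -1.44 (without mock replicate 1, where it was kept) to -1.19, and median centring -1.35. For SPRY2 the threshold was reached with the 60th percentile filter, limma-trend (0.58 in each) and array weights (0.59). The cause was not tested, except that leaving out arrays or using only 2 groups takes samples from the fit.

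The count of probe sets called in GPR39 against mock was 391, and 637 with the 60th percentile filter, 670 with limma-trend, 969 with array weights, 150 with the replicate block, 207 with only the 2 groups compared and 108 to 1324 without 1 array, the highest (419 higher, 905 lower) being without mock replicate 1. For agonist against GPR39 it was 3025, with 1819 under the replicate block and 1518 to 3157 without 1 array, the 3 lowest being without GPR39 replicate 1, 2 or 3. For agonist against mock it was 5022, with 3250 from only the 2 groups compared. The replicate numbers only name the arrays: 0 of 9 same-numbered pairs correlated above 0.1, and 2 of 9 arrays correlated best with their own number. The block changed no call of the 6 genes other than those given. Over the alternatives, counts of called list genes in GPR39 against mock ran from 1 to 3 for MAP kinase phosphatases (2 as reported). They ran from 4 to 16 for ERK output (11), 1 to 3 for Eph and ephrin (3) and 1 to 2 for the IER list (2). For Sprouty they ran from 0 to 1 (0) and for each kinase cascade from 0 to 2 (1). In agonist against GPR39 they ran from 1 to 4 for MAP kinase phosphatases (3), 3 to 6 for the other phosphatases (5), 1 to 3 for the ERK cascade (3) and 2 to 5 for the JNK and p38 cascades (4). Beside arrays left out, other settings ended calls of named genes (limma adjusted p up to 0.113). The replicate block ended those of DUSP3, DUSP5, DUSP7, DUSP14, LIF, EPHA4, IER5, PEA15 against mock, MAP2K1, MAPK3, JUN, MAPKAPK2, ETV1 and 2 of the IER3 value sets, and fitting only 2 groups those of DUSP7, DUSP14, EPHA4, IER5, PEA15 against mock, MAPK3, MAP2K6, FOS against mock, ETV1 and the dim IER3 set. Centring or quantile normalization ended DUSP3, DUSP7, MAPK3, MAP2K6 and MAPKAPK2, and no filter DUSP7, PEA15 against mock, MAPK3 and MAP2K6.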
